A study of Sus scrofa with 105 samples.

Results

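The comparison described here is between the hippocampus and amygdala of 15 piglets killed 1 week after a diffuse brain injury and the same tissue of 18 sham or naive piglets, 33 of the 105 libraries of the series. Members were the deposited count columns whose sample labels gave the region as hippocampus and amygdala and the group as injured 1 week or sham/naive. The brains were fixed and embedded in paraffin, and small RNA of pig (Sus scrofa) tissue was sequenced in the series from the frontal lobe (52 libraries) and from the hippocampus and amygdala (53 libraries). All animals were labelled female, all animals of these groups were untreated, and no genotype or age was given. Survival was 6 to 8 days in the 1 week group and 0 to 8 days in the sham or naive group, so sham operated and naive animals cannot be told apart in the labels. The 10 untreated libraries of the same region from 1 day after injury, and the 33 frontal lobe libraries of the 1 week and sham groups, were used beside them. The region holds the hippocampus and the amygdala together, so neither structure has values of its own, and in whole tissue fewer cells of a type and less RNA per cell cannot be told apart.

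MicroRNAs are short RNAs, cut from hairpin precursors, that load into Argonaute proteins and lower the translation or stability of messenger RNAs that pair with their seed. Neurons, oligodendrocytes, astrocytes, microglia, vessel walls and blood cells each carry characteristic microRNAs, so a mixed brain sample reports on all of them. After a brain injury the first days bring neuronal loss and bleeding, followed by glial activation and repair.

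Brain markers were present in both groups. miR-124a, the main neuronal microRNA, was at 8573 ± 1763 CPM in sham (SD, n = 18) and 8136 ± 1698 at 1 week (SD, n = 15), and miR-338, from oligodendrocytes, was at 773 ± 158 and 733 ± 209. Muscle miR-1 was at 62.5 ± 22.4 CPM in sham and liver miR-122-5p at 59.6 ± 34.8, so both were present at low levels. CPM are counts per 1000000 counts of a library, with totals scaled by the trimmed mean of M-values (TMM).

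Library totals ran from 409637 to 10115115 counts in sham (median 5500970) and from 3096140 to 12523977 at 1 week (median 7031130). The ratio of the geometric mean totals was 1.47 (permutation test, 2-sided, p = 0.125, adjusted p = 0.176 over 9 tests of library properties). The 3 shallowest libraries were all sham, with 409637, 1177273 and 1194104 counts. The animal codes in the library names carried a letter U in 9 of the 15 injured animals and 6 of the 18 sham animals. They carried no letter in 6 and 5, and the letters B, F or I in 0 and 7. The labels do not say what the letters or codes mean. Each library came from an animal of its own, but the 15 injured animals had 8 codes, 7 of them shared by 2 animals, and the 18 sham animals had 17, with 3 codes in both groups. All 10 of the 1 day animals had the letter U.

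**Figure D1:**
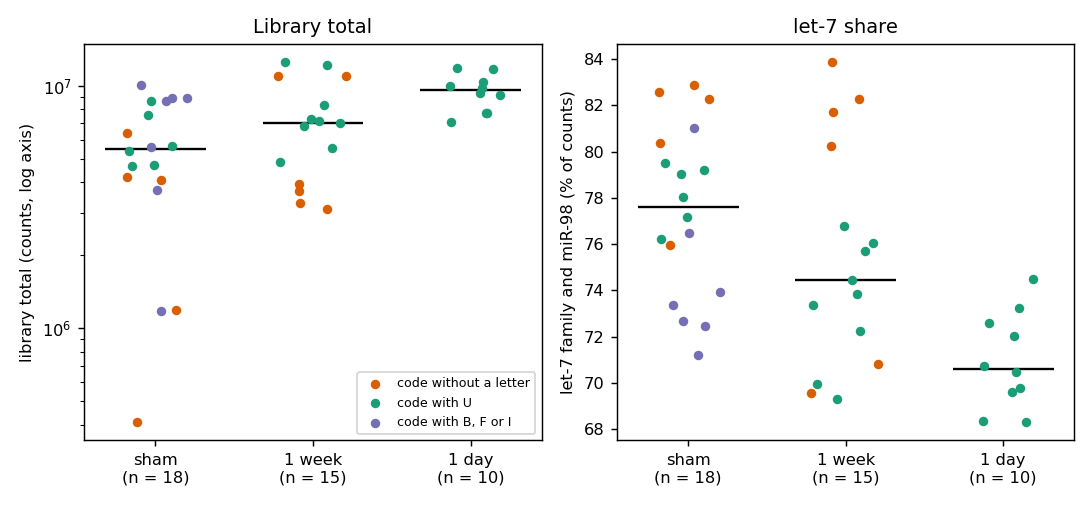
Library total (left, counts, log axis) and the percentage of counts taken by the let-7 family with miR-98 (right) in each hippocampus and amygdala library of the sham, 1 week and 1 day groups; points are libraries, bars are medians and colours give the letter in the animal code. The lowest sham library had 409637 counts and the lowest 1 week library 3096140. Among codes with U, the let-7 share ran from 76.2% to 79.5% in sham and from 69.3% to 76.8% at 1 week. In the sham animals with B, F or I it ran from 71.2% to 81.0%.

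One microRNA of 299 tested, miR-190a, differed between 1 week and sham, and it was lower after injury. This is 0.334% of those tested by edgeR's quasi-likelihood test with Benjamini-Hochberg adjustment at 0.05, the rule meant by "called" below. At an unadjusted p under 0.05 there were 14. The median log2 fold change over the 299 was 0.001, with 150 above and 149 below 0. No microRNA was called higher by this test. DESeq2 called 3, all lower, and limma voom called 0.

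miR-190a comes from an intron of the TLN2 gene and is expressed in brain. It fell at 1 week, and it was a rare species. Its level was 0, 2.54 and 7.39 CPM in the lowest, median and highest of the sham libraries and 0.139, 0.901 and 3.40 CPM in those of the 1 week libraries. The injured libraries were low as a group, with 14 of 15 below the sham median, although the groups overlapped. Sham replicates 6 and 9 had no read of it. These are 2 of the 3 shallowest, where a count of 0 allows up to 7.32 and 2.51 CPM (3 counts of the unscaled total, counting error only). In counts the medians were 15 and 7. The log2 fold change was -1.24 (SE 0.30, 95% interval -1.84 to -0.63, edgeR adjusted p = 0.0388). With a mean of at most 2.64 CPM it lay under the abundance set for naming microRNAs, and it was singled out after its values were seen. Among codes with U its log2 fold change was -1.22 (edgeR adjusted p = 0.0911). The call was close to the threshold: leaving out 1 library at a time, it passed in 18 of 33 cases, and the adjusted p ran from 0.00244 to 0.0976. It missed the threshold without sham replicate 1, 3, 5, 8 or 12 and without 1 week replicate 1, 2, 4, 5, 7, 8, 9, 11, 12 or 13. It also missed it with limma voom (adjusted p = 0.0988), with only the 2 groups in the edgeR fit (adjusted p = 0.275) and with no filter on low counts (adjusted p = 0.0755). Further misses came with deposited entries not merged (edgeR adjusted p = 0.0581) and with log10 total as a covariate, where no microRNA was called. Without the 3 shallowest sham libraries miR-190a was at -1.31 (edgeR adjusted p = 0.0171). That setting leaves out replicates 6 and 9, which had no read of it, so it raises the sham level and cannot serve as a check on depth. At 1 day, the log2 difference from the same sham libraries was -1.45 (edgeR adjusted p = 0.000443). The 1 day libraries ran from 0.293 to 1.60 CPM, and 1 week minus 1 day was 0.22 on the log2 scale (edgeR adjusted p = 0.625).

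The remaining microRNAs named here are, by rule, the 12 with the smallest p among those with a mean of at least 10 CPM in either group. None of the 12 was called by edgeR, and DESeq2 called miR-10386 (-2.17, DESeq2 adjusted p = 0.00362) and miR-4331-3p (-1.74, DESeq2 adjusted p = 0.00166) beside miR-190a. By log2 fold change, 3 stood far apart from the other 9: miR-10386, miR-4331-3p and miR-574-5p, all lower at 1 week.

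miR-10386 had the lowest log2 fold change of all 299, at -2.14 (SE 0.60, 95% interval -3.34 to -0.93, edgeR adjusted p = 0.0840). Sham libraries ran from 62.3 CPM through a median of 444 to 6590, and 1 week libraries from 31.9 through 118 to 1027. The ranges overlapped, and 11 of 15 injured libraries lay below the sham median. miR-4331-3p was at 5.73, 12.6 and 257 CPM in sham and at 4.57, 8.17 and 19.0 at 1 week (lowest, median, highest), a log2 fold change of -1.54 (SE 0.41, edgeR adjusted p = 0.0670). Its injured libraries lay in the lower part of the sham range. miR-574-5p was at 141, 247 and 2982 CPM in sham and 112, 181 and 543 at 1 week. Its log2 fold change was -0.81 (SE 0.31, edgeR adjusted p = 0.736). With 1 library left out at a time, miR-10386 passed the threshold in 7 of 33 cases, miR-4331-3p in 10 and miR-574-5p in 0.

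The level of these 3 microRNAs followed library depth inside each group. Across the 18 sham libraries, log10(CPM + 0.1) of miR-10386 against log10 total gave Pearson's r = -0.86 and Spearman's rho = -0.95 (permutation p = 1e-05 for both, the smallest the resampling can give, adjusted p = 8e-05 and 0.00024 over 24 relations). Across the 15 libraries at 1 week, r was -0.95 and rho -0.90 (permutation p = 1e-05 and 2e-05). With the 2 libraries farthest from the median total left out, r was -0.93 in sham and -0.94 at 1 week. For miR-4331-3p, r was -0.94 in sham and -0.80 at 1 week (rho -0.83 and -0.83, permutation adjusted p for r of 8e-05 and 0.0014), and -0.84 and -0.78 without the 2 libraries. For miR-574-5p, r was -0.91 and -0.88 (rho -0.86 and -0.80, permutation adjusted p for r of 0.000144 and 0.000144), and -0.80 and -0.80 without them. Shallow libraries were thus the ones with high values of these 3 in both groups. Other named microRNAs also followed depth. miR-935 was higher in deeper libraries (r 0.52 in sham and 0.67 at 1 week, rho 0.64 and 0.63, permutation adjusted p 0.0543 and 0.00704 for r and 0.0146 and 0.0316 for rho, and r 0.70 and 0.72 without the 2 libraries). For miR-187 r was 0.65 and rho 0.60 in sham (permutation adjusted p = 0.00931 and 0.0243), and r was 0.30 without the 2 libraries. At 1 week let-7a and miR-671-5p were lower in deeper libraries (r -0.72 and -0.77, rho -0.66 and -0.70, permutation adjusted p for r of 0.00704 and 0.00415, and -0.58 and -0.67 without the 2 libraries), beside r of -0.31 and -0.145 in sham.

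Without the 3 shallowest sham libraries the log2 fold changes were -0.73 for miR-10386, -0.54 for miR-4331-3p and -0.08 for miR-574-5p (edgeR adjusted p = 0.931, 0.931 and 0.942). With log10 total as a covariate they were -0.69, -0.36 and -0.06 (edgeR adjusted p = 0.990 for each). Sham replicate 6, the shallowest library, held the highest miR-4331-3p value, and without it the log2 fold change of miR-4331-3p was -0.96 and that of miR-574-5p -0.25.

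**Figure D2:**
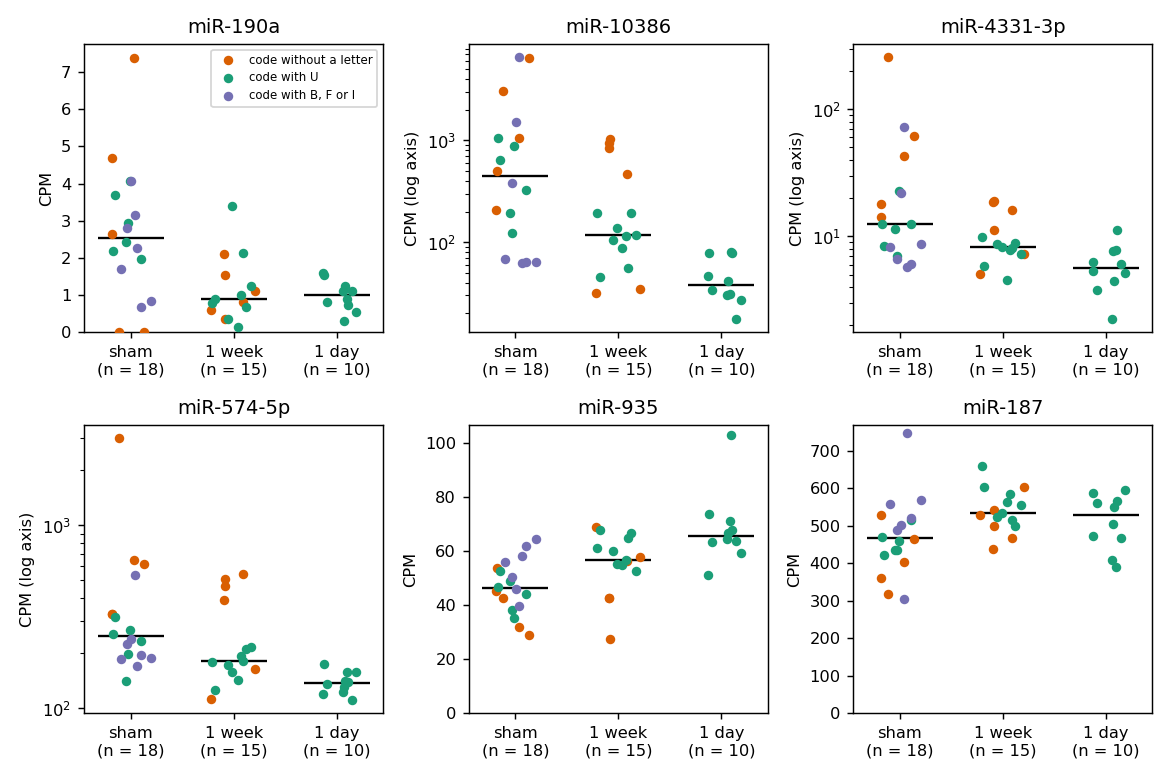
CPM of miR-190a, miR-10386, miR-4331-3p, miR-574-5p, miR-935 and miR-187 in each library of the sham, 1 week and 1 day groups (3 panels have log axes, as labelled); points are libraries, bars are medians and colours give the letter in the animal code. For miR-190a 14 of 15 libraries at 1 week lay below the sham median of 2.54 CPM, and the high sham values of miR-10386, up to 6590 CPM, lay above every 1 week library.

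The other 9 named microRNAs had log2 fold changes between -0.32 and 0.31, with an edgeR adjusted p of 0.736 for each. Those with positive values were miR-27a (0.31, SE 0.16), miR-135 (0.30, SE 0.15), miR-935 (0.24, SE 0.11), miR-187 (0.20, SE 0.09) and miR-221-3p (0.13, SE 0.07). miR-27a belongs to a cluster with miR-23a and miR-24 that is expressed in glia and vessels, and miR-221-3p is an endothelial microRNA. Those with negative values were miR-122-5p, the liver microRNA (-0.32, SE 0.18), miR-671-5p, which cuts the circular RNA CDR1as (-0.31, SE 0.17), miR-361-3p (-0.22, SE 0.10) and let-7a (-0.14, SE 0.08).

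miR-187 and miR-221-3p each lay above the sham median in 14 of 15 injured libraries. miR-187 was at 304, 466.2 and 745 CPM in sham and at 438, 534 and 659 at 1 week (lowest, median, highest). miR-935 was at 28.9, 46.4 and 64.4 CPM in sham and at 27.4, 56.6 and 68.9 at 1 week. The injured range of miR-187 lay inside its sham range, and those of miR-935 were about the same, so that it was the medians that stood apart.

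**Figure D3:**
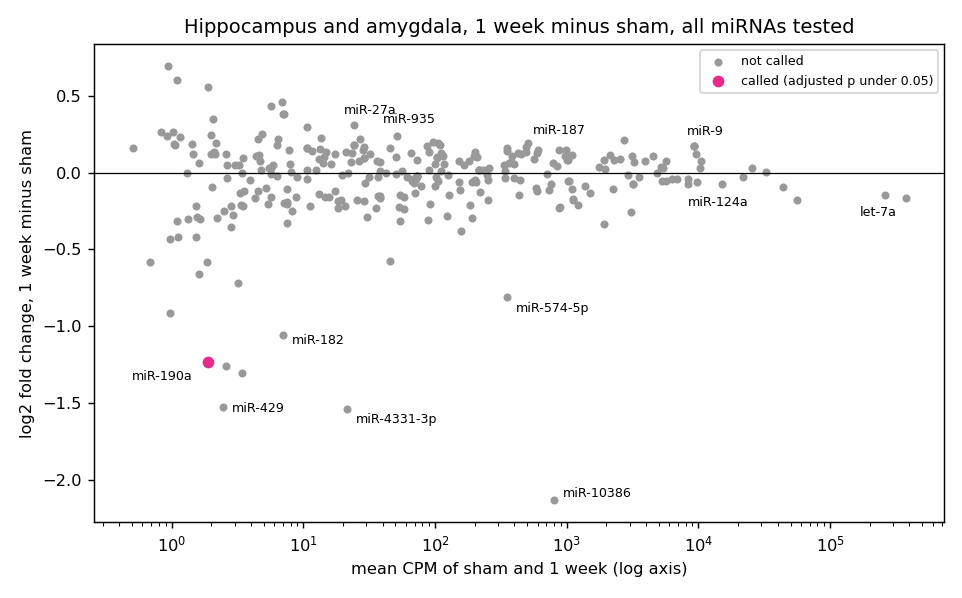
Log2 fold change of 1 week minus sham (vertical) against the mean CPM of both groups (horizontal, log axis) for the 299 microRNAs tested; each point is a microRNA, and the coloured point is miR-190a, the 1 called. The points gather around 0, with a median of 0.001, and the lowest is miR-10386 at -2.14.

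The precision of the data set bounds on what could have gone unseen. The median standard error of a log2 fold change was 0.14. The 95% interval lay within 1 log2 unit of 0 for 267 of the 299 microRNAs and within 0.5 for 189. At a mean of at least 10 CPM these numbers were 204 and 174 of 210. A log2 fold change beyond 1 in size was found for 7 microRNAs in all and for 2 at that abundance.

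Of the 15 neuron-enriched microRNAs tested, 0 were called over all libraries, beside 0.334% of all tested. Their median log2 fold change was -0.02, beside 0.001 for all tested, and 6 of 15 were positive. miR-9, which works with miR-124a in neuronal differentiation, ran from 5462 through a median of 8188 to 16367 CPM in sham and from 5828 through 9595 to 14014 at 1 week. Its log2 fold change was 0.18 (95% interval -0.08 to 0.43, edgeR adjusted p = 0.736). Its reads cannot be told apart from those listed for miR-9-1 and miR-9-2, which hold nearly the same counts. miR-124a gave -0.08 (95% interval -0.28 to 0.13), and neuronal miR-128 and miR-138 gave 0.03 and 0.12 (95% intervals -0.10 to 0.17 and -0.04 to 0.28). miR-7-5p, the most abundant of the neuron-enriched members, gave -0.07 from 16297 CPM in the median sham library.

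The activity-regulated pair of CREB targets, miR-132 and miR-212, share a precursor. miR-132 was at 110 ± 20.2 CPM in sham and 112 ± 17.9 at 1 week (log2 fold change 0.01, 95% interval -0.19 to 0.22). miR-212 was at 5.93 ± 3.44 and 8.04 ± 3.80 CPM (0.38, 95% interval -0.08 to 0.85, edgeR adjusted p = 0.736), with 12 of 15 injured libraries above the sham median. The interval of miR-212 includes both no change and a rise of more than 0.5 log2 units.

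Oligodendrocyte miR-338, miR-219a and miR-219b-3p, which drive myelination, gave -0.08, -0.03 and -0.12 on the log2 scale, none called. The list of 10 astrocyte-associated microRNAs (the miR-23, miR-24, miR-26, miR-27 and miR-29 families) had no call, beside 0.334% of all tested. Its median was 0.11, with 8 of 10 above 0, the highest miR-27a at 0.31. miR-29a-3p, which restrains extracellular matrix genes, was at 2029 ± 473 CPM in sham and 2202 ± 540 at 1 week (log2 fold change 0.12, 95% interval -0.10 to 0.34).

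Inflammatory microRNAs were also without a call (0 of 8, median 0.10), beside 0.334% of all tested. miR-21-5p, which rises in reactive astrocytes and microglia, was at 102 ± 18.7 CPM in sham and 115 ± 32.6 at 1 week. Its log2 fold change was 0.18 (95% interval -0.05 to 0.41), and 8 of 15 injured libraries lay below the sham median. miR-155-5p, induced by toll-like receptor signalling, gave -0.06 (95% interval -0.21 to 0.09) from a mean of 210 CPM. The NF-kB-induced pair went in opposite directions, with miR-146b at 0.46 (95% interval -0.09 to 1.00) and miR-146a-5p at -0.59 (95% interval -1.32 to 0.15). Both are rare, with sham means of 5.84 and 2.16 CPM.

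Blood and vessel microRNAs showed no call either (0 of 5 leukocyte, 0 of 3 erythrocyte, 0 of 5 endothelial, 0 of 7 mural cell), beside 0.334% of all tested. The leukocyte microRNAs miR-223 and miR-142-5p gave 0.18 and 0.22 on the log2 scale, and erythrocyte miR-451 gave 0.19 (95% interval -0.84 to 1.21) at sham and 1 week means of 1.38 and 1.48 CPM. miR-486, also abundant in red cells, gave -0.21. Endothelial miR-126-3p ran from 2933 through 3811 to 5024 CPM in sham and from 2826 through 4002 to 5480 at 1 week (log2 fold change 0.08, 95% interval -0.08 to 0.23). Smooth-muscle miR-143-3p gave 0.21 (95% interval -0.07 to 0.49), and miR-210, induced by hypoxia, gave 0.16 (95% interval -0.07 to 0.40).

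**Figure D4:**
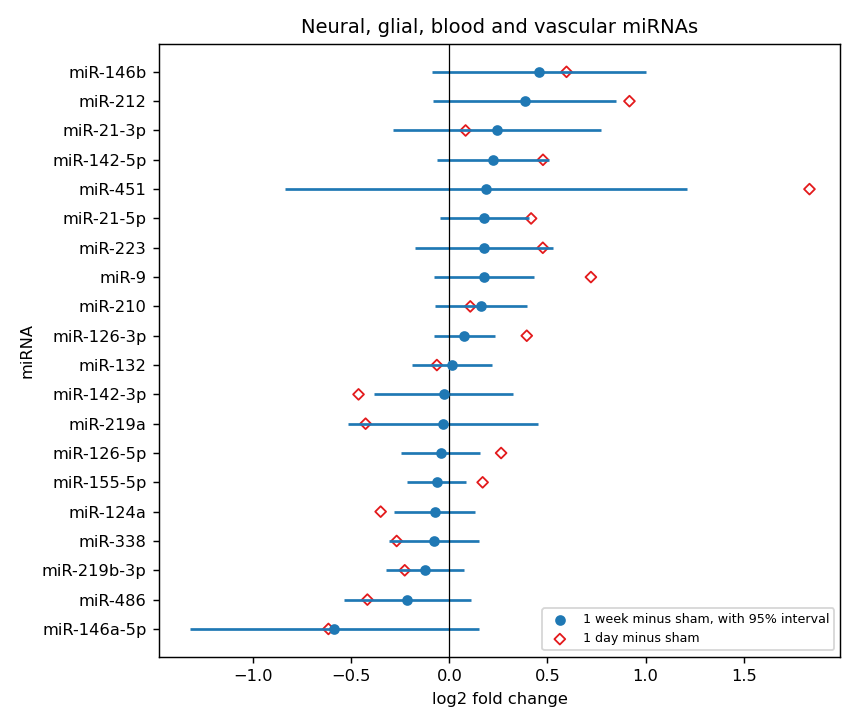
Log2 fold change of 1 week minus sham with its 95% interval (filled points and lines) and of 1 day minus sham (open diamonds) for 20 neural, glial, inflammatory, blood and vascular microRNAs (vertical); both comparisons use the same 18 sham libraries. All 20 of the 1 week intervals include 0. The 1 day diamond of miR-9 lies at 0.72 and that of miR-451 at 1.83.

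The epithelial and choroid plexus list was the only one of the 22 lists with a median beyond 0.5 in size. It too had no call, beside 0.334% of all tested. Its 6 tested members had a median log2 fold change of -1.16, and 3 had an unadjusted p under 0.05 (adjusted p = 0.736 for each): miR-429 at -1.52, miR-205 at -1.26 and miR-182 at -1.06. These are epithelial and sensory microRNAs, and all 3 were rare. miR-205 was at 0, 1.71 and 25.6 CPM in sham and 0.38, 1.23 and 4.78 at 1 week. A few sham libraries were high and the medians lay close together, as with miR-182 (medians 4.54 and 3.71 CPM, highest 54.7 and 8.67) and miR-429 (medians 0.95 and 0.83, highest 28.0 and 5.39). The 2 abundant members of the list, choroid plexus miR-204 and ciliated-cell miR-34c, gave 0.11 (95% interval -0.69 to 0.90) and 0.16 (95% interval -0.96 to 1.28). The summed level of the list ran from 117 to 1694 CPM in sham and from 231 to 2217 at 1 week. The part of included epithelium in these values was not tested.

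The remaining lists had medians between -0.32 and 0.20 and no call, beside 0.334% of all tested. They held 4 muscle microRNAs (-0.07), 1 liver microRNA (-0.32), 9 linked to p53 and cell death (0.09) and 10 of the let-7 family (-0.05). They also held 10 of the miR-30 family (0.06), 13 of the miR-17-92 and related clusters (-0.07) and 5 of the miR-181 family (0.02). The last were 10 of the miR-424 and miR-503 cluster (0.07) and 19 of the imprinted DLK1-DIO3 cluster (0.05). The highest single value in these remaining lists was miR-450b-3p at 0.70 (95% interval -0.06 to 1.45), which had means of 0.70 and 1.18 CPM.

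Within the animals whose code has the letter U, more microRNAs differed between 1 week and sham. The 9 injured animals came from 5 codes, 4 of them with 2 animals each, and the 6 sham animals from 6 other codes. No code was in both groups, so injury cannot be told apart from code in this set. Taking each animal as a replicate, of 280 tested in 9 and 6 libraries, 23 were called (8.21%), 18 lower (6.43%) and 5 higher (1.79%), and 73 had an unadjusted p under 0.05. With the counts of animals that share a code summed (5 codes against 6), edgeR called 9 of 286 (3.15%), all among the 23: let-7a, let-7c, let-7e, miR-18a, miR-423-5p, miR-671-5p, miR-769-3p and miR-92b-5p lower and miR-505 higher. The other 14 had adjusted p between 0.0623 and 0.0909 there, and all 23 had the same sign. All 23 are named here, and those outside the naming rule were chosen after their values were seen. In the animals without a letter (6 and 5 libraries), edgeR called 0 of 258 (0%), with 7 at an unadjusted p under 0.05. The difference between both letter classes, tested as an interaction, gave 0 calls of 287 (0%), 12 at an unadjusted p under 0.05 and a smallest adjusted p of 0.943. The response to injury was therefore not shown to differ between the classes.

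Part of the let-7 family was among these calls. Of its 10 members tested with U, 3 were called lower, beside 6.43% of all tested. The median log2 fold change of the 10 was -0.12, beside 0.01 for all tested. The share of counts of the family with miR-98 was 78.2 ± 1.298% in the 6 sham libraries with U and 73.5 ± 2.62% in the 9 libraries at 1 week. The difference was -4.67 percentage points (exact permutation test, 2-sided, p = 0.000799, adjusted p = 0.00719 over 9 tests). Sham ran from 76.2% to 79.5% and 1 week from 69.3% to 76.8%, so the ranges barely overlapped. That test takes animals of a shared code as independent. Over the means of 5 and 6 codes the difference was -5.02 points (exact permutation test, 2-sided, p = 0.00866, adjusted p = 0.0173 over 2 tests). Over all 33 libraries the shares were 77.5 ± 3.69% and 75.3 ± 4.81% (difference -2.12, permutation adjusted p = 0.176). In those without a letter they were 80.8 ± 2.89% and 78.1 ± 6.24% (exact permutation adjusted p = 0.394). The sham animals with B, F or I ran from 71.2% through a median of 73.4% to 81.0%. Shares as low as those at 1 week with U were thus also found in sham animals of other codes.

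let-7e, let-7c and let-7a were the called members with U. let-7e had medians of 68569 CPM in sham and 44260 at 1 week (log2 fold change -0.62, 95% interval -0.85 to -0.39, edgeR adjusted p = 0.00327), and 8 of 9 injured libraries lay below every sham library. let-7c had medians of 401571 and 312087 CPM (-0.41, edgeR adjusted p = 0.0204). let-7a had medians of 272677 and 224441 (-0.32, edgeR adjusted p = 0.0204), and it was the one of the 23 whose groups did not overlap, with 1 week from 186084 to 261923 and sham from 265735 to 330368. The animals without a letter gave -0.09, -0.19 and -0.16 for the 3, with wide intervals (-0.75 to 0.58 for let-7e).

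**Figure D5:**
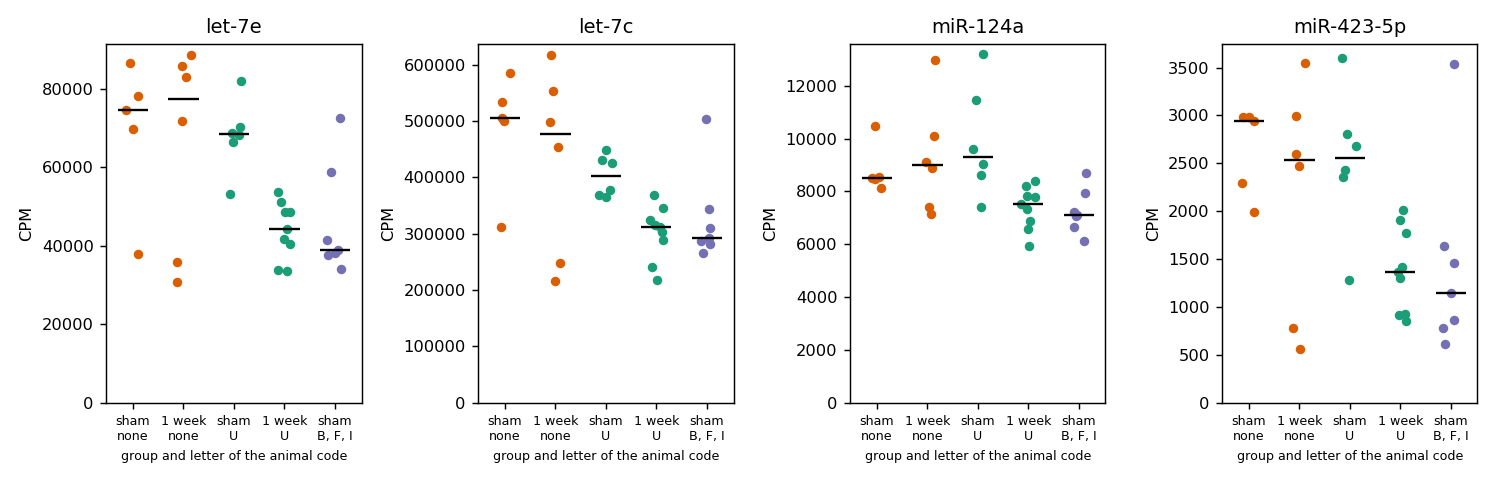
CPM (vertical, from 0) of let-7e, let-7c, miR-124a and miR-423-5p in sham and 1 week libraries by the letter in the animal code (none, U, or B, F and I, the last in sham animals alone); points are libraries and bars are medians. With U the median of let-7e was 68569 CPM in sham and 44260 at 1 week, and the sham animals with B, F or I had a median of 38875.

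Among the other called decreases with U were miR-10386 (-2.18 on the log2 scale), miR-92b-5p (-1.05), miR-423-5p (-0.85), miR-769-3p (-0.79), miR-671-5p (-0.71) and miR-296-3p (-0.62). miR-423-5p, abundant in plasma, had medians of 2553 CPM in sham and 1364 at 1 week. In the sham animals with B, F or I it ran from 607 through a median of 1143 to 3537 CPM. Neuronal miR-124a fell by 0.41 (95% interval -0.64 to -0.18, edgeR adjusted p = 0.0273), from a median of 9313 to 7514 CPM, and 4 of 9 injured libraries lay below all sham libraries. Its call was lost with log10 total as a covariate (-0.37, edgeR adjusted p = 0.117), with animals of a code summed (-0.425, edgeR adjusted p = 0.0738) and in 6 of 15 cases with 1 library left out (edgeR adjusted p up to 0.0862, without sham replicate 18). The remaining decreases were miR-10a-5p, miR-7137-3p, miR-18a, miR-206, miR-1285, miR-320, miR-30c-1-3p and miR-30b-3p, from -1.16 to -0.45.

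The 5 called increases with U were miR-505 (0.70), miR-30c-5p (0.54), miR-935 (0.45), miR-381-3p (0.35) and miR-187 (0.30). miR-935 had medians of 45.4 CPM in sham and 60.2 at 1 week, and miR-505 10.3 and 15.7. For both, 8 of 9 injured libraries lay above all 6 sham libraries with U. The sham animals with B, F or I, which are not in this fit, reached into the injured range. In them miR-935 ran from 39.9 through a median of 56.0 to 64.4 CPM, and miR-505 from 7.34 through 19.3 to 20.7. miR-381-3p is a neuronal microRNA of the DLK1-DIO3 cluster, and miR-30c-5p and miR-30c-1-3p, the opposite strands of miR-30c hairpins, moved in opposite directions.

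Single libraries moved these counts. Leaving out 1 of the 15 libraries with U at a time left between 9 and 39 calls, 9 without sham replicate 14 or 17 and 39 without sham replicate 2. Called in every one of these cases were 6: let-7e, miR-10386, miR-18a, miR-505, miR-769-3p and miR-92b-5p. With log10 total as a covariate, 6 of 280 were called. let-7a was among them (-0.33, edgeR adjusted p = 0.0495), while miR-671-5p, miR-935 and miR-187 were not (-0.56, 0.43 and 0.32, edgeR adjusted p = 0.117 for each). In a fit of all libraries with the letter as a covariate 6 were called (2.01%), all lower: miR-190a (edgeR adjusted p = 0.0130), miR-10a-5p (0.0214), miR-4331-3p, miR-10386, miR-671-5p and miR-205 (0.0390 each), and leaving out 1 library gave between 1 and 12.

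Against 1 day after injury, the 1 week libraries differed widely: 91 of 299 microRNAs were called (30.4%), 37 higher (12.4%) and 54 lower (18.1%). This contrast shares no sham library. No animal code was in both groups, also among codes with U, so time after injury cannot be told apart from code. The split changed with the settings. It was 42 higher and 39 lower under relative log expression factors, 53 and 47 with DESeq2 and 37 and 40 with let-7 left out. Among codes with U it was 45 and 21 of 287 tested. That set holds only 9 of the 1 week libraries, and the part of the letter was not tested. For orientation, 1 day minus sham, which uses the same sham libraries as 1 week minus sham, called 145 of 299 (48.5%).

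By rule the 8 largest increases and 8 largest decreases from 1 day to 1 week at a mean of at least 10 CPM are given. The increases were miR-4332 (2.71, SE 0.69), miR-10386 (2.66, SE 0.74), miR-193a-5p (1.48), miR-92b-5p (1.44), miR-885-3p (1.39), miR-769-3p (1.31), miR-139-3p (1.04) and miR-1307 (1.02). miR-193a-5p had medians of 20.2 CPM at 1 day and 51.6 at 1 week, beside 54.8 in sham (edgeR adjusted p = 0.000963 for 1 week minus 1 day). miR-769-3p had medians of 44.0 and 85.1, beside 141 in sham, and miR-139-3p, whose hairpin lies in a PDE2A intron, 391 and 824, beside 979. In each of these the 1 week median lay between those of 1 day and sham.

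The decreases were miR-363 (-0.82), miR-17-3p (-0.68), miR-374a-5p (-0.64), miR-129a-3p (-0.64), miR-450c-3p (-0.63), miR-15b (-0.63), miR-455-3p (-0.59) and miR-22-5p (-0.56). miR-15b, of the miR-15/16 family that targets cell-cycle and survival genes, had medians of 273 CPM at 1 day and 163 at 1 week, beside 156 in sham (edgeR adjusted p = 0.0029). miR-374a-5p had 39.0 and 23.6, beside 23.2. All 16 kept their sign under relative log expression factors, with DESeq2, with let-7 left out and among codes with U. Among codes with U 14 of the 16 were called, beside 66 of 287 tested. The 16 were picked for large called differences in these same libraries, and the set with U reuses all of the 1 day libraries. Kept signs and calls were thus largely set by the choice and are no independent support. The 1 week mean lay between the 1 day and sham means for 12 of the 16, and this was not counted over all tested. None of the 16 was called for 1 week minus sham, beside 0.334% of all tested. Neither count shows a return toward sham, because the 16 were chosen for their distance from 1 day.

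Some microRNAs of the cell type lists also differed between the 2 times, beside 12.4% called higher and 18.1% lower of all tested. Of 15 neuron-enriched members 1 was called higher and 4 lower, and of 8 inflammatory members 1 and 2. The counts were 0 and 3 of 5 endothelial and 0 and 1 of 3 erythrocyte members. Those named next are examples and leave out other called members. miR-9 was lower at 1 week than at 1 day by a log2 difference of -0.55 (edgeR adjusted p = 0.00506), miR-137, a regulator of dendrite growth, by -0.49 (0.00506) and miR-126-3p by -0.32 (0.00632). Erythrocyte miR-451 differed by -1.65 (edgeR adjusted p = 0.0126), with means of 5.01 CPM at 1 day and 1.48 at 1 week, and miR-155-5p by -0.23 (0.0364). let-7e was higher at 1 week by 0.69 and let-7c by 0.56 (edgeR adjusted p = 0.0029 and 0.00506). The let-7 family did not move as 1: of its 10 members tested, 2 were called higher and 3 lower. Its median was -0.075, beside -0.057 for all tested. The 1 day libraries had totals of 7074100 to 11870700 counts and a let-7 share of 71.0 ± 2.08% (n = 10), and their part in these differences was not tested.

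In the frontal lobe of the same groups no microRNA was called for 1 week minus sham (0 of 293, 0%, by edgeR; 20 at an unadjusted p under 0.05, smallest adjusted p = 0.393; DESeq2 called 1, limma voom 0). The region difference of the response, tested in both libraries of each animal with the animal as a block, gave 0 calls of 287 (0%) by edgeR, DESeq2 and limma voom, with 4 at an unadjusted p under 0.05 by edgeR and a smallest adjusted p of 0.997. By rule the 5 smallest p are given. They were miR-20a-3p (hippocampus and amygdala minus frontal lobe, -0.90, SE 0.36), miR-190a (-1.20, SE 0.51), miR-9858-5p (0.46, SE 0.20), miR-146a-5p (-1.01, SE 0.47) and miR-935 (0.31, SE 0.15). miR-190a gave 0.19 in the frontal lobe (SE 0.38), where its medians were 0.85 CPM in sham and 1.14 at 1 week. miR-10386 gave -2.34 there and miR-4331-3p -1.93, beside -2.14 and -1.54 in the hippocampus and amygdala, and neither was called in either region. The shallowest frontal lobe sham libraries had 98996, 689899 and 1528731 counts. They came from the same animals as the shallowest sham libraries of the hippocampus and amygdala, so the regions are not independent here. The part of depth in the frontal lobe values was not tested.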

How the data were processed

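Values were the authors' deposited counts per microRNA entry, raw whole numbers in 1 table for all libraries (QIAseq small RNA libraries, per the labels' protocols). Reads were handled with Trimmomatic 0.39 and cutadapt 1.9.1, per the submitters' processing notes. Which aligner, counter, genome build and annotation were used, and whether molecular identifiers were collapsed, was not given in the sources used here. Of 542 entries, 457 mature names were made (text before the first _ sign, with the entry of highest total kept). In 6 sets of names the counts were nearly the same, and list counts take each set once.

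All 53 hippocampus and amygdala libraries (4 groups, the treated one included) entered 1 edgeR 4.0.16 fit (R 4.3.3) with TMM factors, filterByExpr (minimum count 10, minimum total 15) and robust quasi-likelihood tests, 2-sided, adjusted over all microRNAs tested. Alternatives used DESeq2 1.42.0 and limma 3.58.1, and the fits were tested on simulated data. Library properties were compared with permutation tests (scipy 1.17.1, 100000 resamples, exact where small). Named microRNAs are the 12 with the smallest p at a mean of at least 10 CPM, a fixed panel, the most abundant, and rule-based picks for the other contrasts. The members, lists and rules were chosen with earlier results of these data known. The lists named "lowered at 1 day" (20 tested, median -0.23 at 1 week, 0 called) and "raised at 1 day" (21 tested, median 0.14, 0 called) came from these samples and are not independent. Each library came from a separate animal, but several animals share a code, so p-values measure the spread between animals and take those of a code as independent, except where their counts were summed. The log2 fold changes and their intervals are from edgeR and cover counting and replicate error.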

Additional observations from a re-analysis of the deposited data

Results flagged for a closer look

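In the 1 day group of 10 libraries, 57 measures were examined for 1 library far from the others. Of these 3 were flagged, and chance alone flags about 1 in 20. The sham and 1 week groups were not examined in this way, so nothing is said here about single libraries in them. The 1 day group is only set beside the 1 week values. The highest miR-935 value at 1 day was 102.8 CPM (replicate 6), where the other 9 libraries ran from 51.05 to 73.72. The highest miR-146b value was 20.1 CPM (replicate 2), with the others from 4.781 to 12.19. The highest miR-26a value was 35470 CPM (replicate 10), with the others from 18920 to 26570.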

How the results depend on the processing

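The count of 1 for 1 week minus sham was also 1 with relative log expression or upper quartile factors, near-identical names merged, let-7 left out, animals of a code summed, or the 3 lowest sham totals left out (the last 2 chosen after seeing the data, as were all other sums and means per code, U with log10 total, the letter interaction, and leaving out libraries in the fits with U, with the letter and against 1 day). It was 0 with limma voom, no filter, a mean of at least 10 CPM (which removes miR-190a), only the 2 groups, entries not merged, log10 total as covariate, codes without a letter, or the 3 shared codes as a block (3 sham and 6 injured animals). It was 3 with DESeq2, 6 with the letter as covariate, 23 with U, 6 with U and log10 total and 9 with U and animals of a code summed. Leaving out each library gave 0 to 3, and 0 in 15 of 33 cases. For 1 week minus 1 day leaving out each library gave 76 to 109 calls, beside 91. In the frontal lobe DESeq2 gave 1. The let-7 difference was -4.67 points with U and -5.02 over its code means, beside -2.12. The cause of these changes was not tested, except that the smaller sets hold fewer libraries. Of 576 values of 33 microRNAs under 18 settings, 26 in 10 microRNAs changed sign, none called and all with a main log2 fold change of at most 0.32 in size. By replicate number no paired analysis was possible because these numbers only name libraries in accession order, while the blocks on shared codes (above) and on the animal across regions come from the library names. Depth limits the rare microRNAs, such as miR-190a with a median of 15 counts in sham.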
